A study of Mus musculus with 22 samples.

Results

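The genes described here are 34 genes that dividing progenitor cells use to copy their DNA and to separate their chromosomes, read in whole mouse brain at birth. They were taken by symbol from a list of members that was chosen with earlier results of these data known. Of them 11 are replication genes and 23 are mitosis genes. All 34 are present in both deposited count tables, of 55409 genes in the PWS-cr table and 55406 in the PWS-IC table. All 34 also passed the filter on low counts in both series (at least 10 counts in at least 4 libraries), so no member dropped out of any test.

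A cell that divides first loads the MCM helicase onto its replication origins, then unwinds and copies its DNA in S phase, and then condenses and separates the copies in mitosis. Replication genes are switched on by E2F factors at the G1 to S border, whereas most mitosis genes peak later, in G2 and M. Their promoters hold the cell-cycle gene homology region (CHR), which the DREAM complex binds in resting cells and complexes with B-MYB and FOXM1 in dividing cells, and CCAAT boxes bound by NF-Y. In the newborn mouse brain the dividing cells are mainly progenitors of the ventricular and subventricular zones, the granule precursors of the cerebellum and young glia, while most neurons have left the cycle. In a bulk sample, fewer dividing cells and less RNA of these genes per dividing cell cannot be told apart.

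Both mouse models carry a deletion inherited on one chromosome in the region that is lost in Prader-Willi syndrome (PWS). PWS-cr pups (labelled HET PWS-Cr) lack the critical interval with the *Snord116* snoRNAs and *Ipw*, and PWS-IC pups (labelled HET PWS-ICdel, deletion on the paternal chromosome) lack the imprinting centre that keeps the paternal genes of the region active. Wild-type pups (labelled WT) were littermates of each model, and every sample is a P0 brain, frozen on the morning after birth. The labels name no transgene, Cre or treatment. Counts were analysed for 6 PWS-cr and 5 wild-type pups of the PWS-cr series and for 4 PWS-IC and 5 wild-type pups of the PWS-IC series, with 45798407 to 62103143 counted fragments per library. The first number of a library name was read as the litter, since the study took its pups from 4 and 2 litters. In the PWS-cr series litter 1 has 3 PWS-cr pups and 1 wild-type pup, litters 3 and 4 each have 1 PWS-cr and 2 wild-type pups, and litter 2 has 1 PWS-cr pup only. In the PWS-IC series litter 1 has 2 PWS-IC and 3 wild-type pups and litter 4 has 2 of each; by label the 4 PWS-IC pups are female and, of their wild-type littermates with counts, only 1 is, so sex and genotype can hardly be told apart there.

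Several libraries stand apart. In the PWS-cr series the host transcript of the deleted snoRNAs, *Snhg14*, had 2095 to 2654 counts in the PWS-cr pups and 7002 to 8387 in wild-type, as labelled. In the PWS-IC series *Snrpn*, a paternally expressed gene of the region, had 18116 counts in the library labelled 1_3_IC (PWS-IC, female) and 343 in the library labelled 1_7_IC (WT, male), and *Xist* and the Y-linked *Eif2s3y* went against the labelled sex of both. Levels are in CPM, counts scaled to one common library size with TMM, and PWS-IC values are given on all 9 libraries as labelled and on the 7 others. The library labelled 1_3_IC also read short transcripts high: the median log2 deviation from the series was 0.57 for genes with under 2000 exonic bases and -0.39 for genes with 8000 or more, against -0.07 to 0.11 in any length class of the other PWS-IC libraries. Of the members, 13 of 14 under 4000 bases stood above the median library there, and 2 of 5 of 8000 bases or more. So did 13 of 15 members of 4000 to 8000 bases (median 0.21), a class with a median of 0 over all genes in that library. Lengths count all annotated exons of a gene together, so its main transcript may be shorter. The part of length in the values of the members was not tested. Caudal Hox genes, which mark hindbrain and spinal cord, summed to 0.636 CPM in 1_1_Cr and to 37.8 in 3_5_Cr, and muscle genes to 71.2 CPM in 3_5_Cr and 37.9 in 4_2_Cr against 6.99 to 13.8 in the other PWS-cr series libraries.

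The promoters of the members were searched for 3 motifs known from cell-cycle genes. RefSeq windows of 250 bases before to 50 bases after the transcription start (GRCm38.p6) were matched by symbol for 28 of the 34 members; *Mcm4*, *Kif20a*, *Ccna2*, *Aurkb*, *Ccne2* and *Tpx2* had no match. The RefSeq start used lies 466 bases inside the annotated gene for *E2f1* and 539 bases inside it for *Mcm7*, so these windows may miss the promoter of the main transcript; for the other 26 it lies within 250 bases of the annotated start. Both strands were searched for the CHR core (TTTGAA or TTCGAA), the NF-Y box (CCAAT) and E2F sites (TTTCCCGC, TTTCGCGC, TTTGCCGC or TTTGGCGC). Promoters are shown for 3 mitosis genes that DESeq2 called for litter in the PWS-cr series and for 3 MCM helicase genes that edgeR called for litter on 7 libraries of the PWS-IC series, with values given after the genotype comparisons. *Cenpf* encodes a kinetochore protein and its window is chr1:189688037-189688336 on the minus strand; that of *Mki67*, the gene of the proliferation antigen Ki-67, is chr7:135716330-135716629 on the minus strand; and that of *Ube2c*, the ubiquitin-conjugating enzyme of the anaphase-promoting complex, is chr2:164769679-164769978 on the plus strand. The windows of *Mcm2*, *Mcm3* and *Mcm5* are chr6:88898731-88899030 on the minus strand, chr1:20820263-20820562 on the minus strand and chr8:75109259-75109558 on the plus strand. Each sequence runs 5′ to 3′ on the strand of its gene, and capitals mark the matches on either strand, which may overlap one another.
Cenpf: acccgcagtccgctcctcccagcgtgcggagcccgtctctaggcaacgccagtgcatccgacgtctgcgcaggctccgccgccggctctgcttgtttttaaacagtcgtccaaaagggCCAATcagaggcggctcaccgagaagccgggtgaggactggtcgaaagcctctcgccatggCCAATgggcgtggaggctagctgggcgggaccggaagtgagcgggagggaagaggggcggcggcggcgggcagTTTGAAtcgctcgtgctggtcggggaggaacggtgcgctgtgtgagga
Mki67: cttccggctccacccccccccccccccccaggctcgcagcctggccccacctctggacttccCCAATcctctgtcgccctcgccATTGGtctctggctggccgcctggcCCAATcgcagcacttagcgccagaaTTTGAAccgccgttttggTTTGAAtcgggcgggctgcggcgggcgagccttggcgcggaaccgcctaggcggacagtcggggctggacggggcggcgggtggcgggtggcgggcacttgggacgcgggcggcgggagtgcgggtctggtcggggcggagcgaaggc
Ube2c: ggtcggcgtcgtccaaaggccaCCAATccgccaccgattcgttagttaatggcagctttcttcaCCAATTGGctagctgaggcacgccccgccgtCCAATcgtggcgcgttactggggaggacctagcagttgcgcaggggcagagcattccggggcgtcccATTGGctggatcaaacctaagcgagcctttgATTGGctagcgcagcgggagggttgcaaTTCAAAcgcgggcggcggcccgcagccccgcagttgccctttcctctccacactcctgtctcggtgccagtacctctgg
Mcm2: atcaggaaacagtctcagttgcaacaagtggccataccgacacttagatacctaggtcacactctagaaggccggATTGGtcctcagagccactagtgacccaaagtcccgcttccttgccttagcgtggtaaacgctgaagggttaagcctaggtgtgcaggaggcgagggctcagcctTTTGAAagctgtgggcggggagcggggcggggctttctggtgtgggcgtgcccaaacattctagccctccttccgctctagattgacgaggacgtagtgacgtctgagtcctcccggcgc
Mcm3: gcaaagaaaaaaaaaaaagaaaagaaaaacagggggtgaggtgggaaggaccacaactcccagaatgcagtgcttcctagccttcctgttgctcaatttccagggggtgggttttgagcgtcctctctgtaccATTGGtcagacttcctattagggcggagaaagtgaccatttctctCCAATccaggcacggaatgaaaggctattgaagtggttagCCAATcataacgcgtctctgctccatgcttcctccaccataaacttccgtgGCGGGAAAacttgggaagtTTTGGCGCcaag
Mcm5: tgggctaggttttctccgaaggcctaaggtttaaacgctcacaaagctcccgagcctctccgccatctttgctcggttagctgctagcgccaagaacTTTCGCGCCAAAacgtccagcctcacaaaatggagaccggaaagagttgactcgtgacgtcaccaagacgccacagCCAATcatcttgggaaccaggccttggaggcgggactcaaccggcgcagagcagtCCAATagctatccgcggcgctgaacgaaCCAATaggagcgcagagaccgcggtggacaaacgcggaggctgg

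The 3 mitosis promoters printed hold a CHR core and NF-Y boxes and no E2F site, whereas *Mcm3* and *Mcm5* hold E2F sites and NF-Y boxes and no CHR core. *Mcm2* is an exception among the printed replication promoters, with 1 CHR core, 1 NF-Y box and no E2F site of these letters. Of the called genes not printed, *Ccnb1*, *Cenpe* and *Nusap1* held no CHR core, whereas the other called mitosis genes with a window did. *Pcna*, also called on 7 libraries, held no E2F site. Over all matched members a CHR core lay in 15 of 19 mitosis promoters (78.9%) and in 2 of 9 replication promoters (22.2%), against 19.2% of all 32851 promoters. E2F sites lay in 4 of 9 replication promoters (44.4%), in 1 of 19 mitosis promoters (5.26%), that of *Cdk1*, and in 2.26% of all promoters. Without the windows of *E2f1* and *Mcm7*, a CHR core lay in 1 of 7 replication promoters and an E2F site in 3 of 7. The NF-Y box was common to both, in 17 of 19 mitosis and 7 of 9 replication promoters (89.5% and 77.8%, against 37.4% of all promoters), and every mitosis promoter with a CHR core also held an NF-Y box (78.9%, against 7.52% of all promoters). *Tyms*, *E2f1*, *Birc5* and *Nusap1* held none of the 3 in this window. These are matches of letters, described with no test, and no binding was measured.

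**Figure D1:**
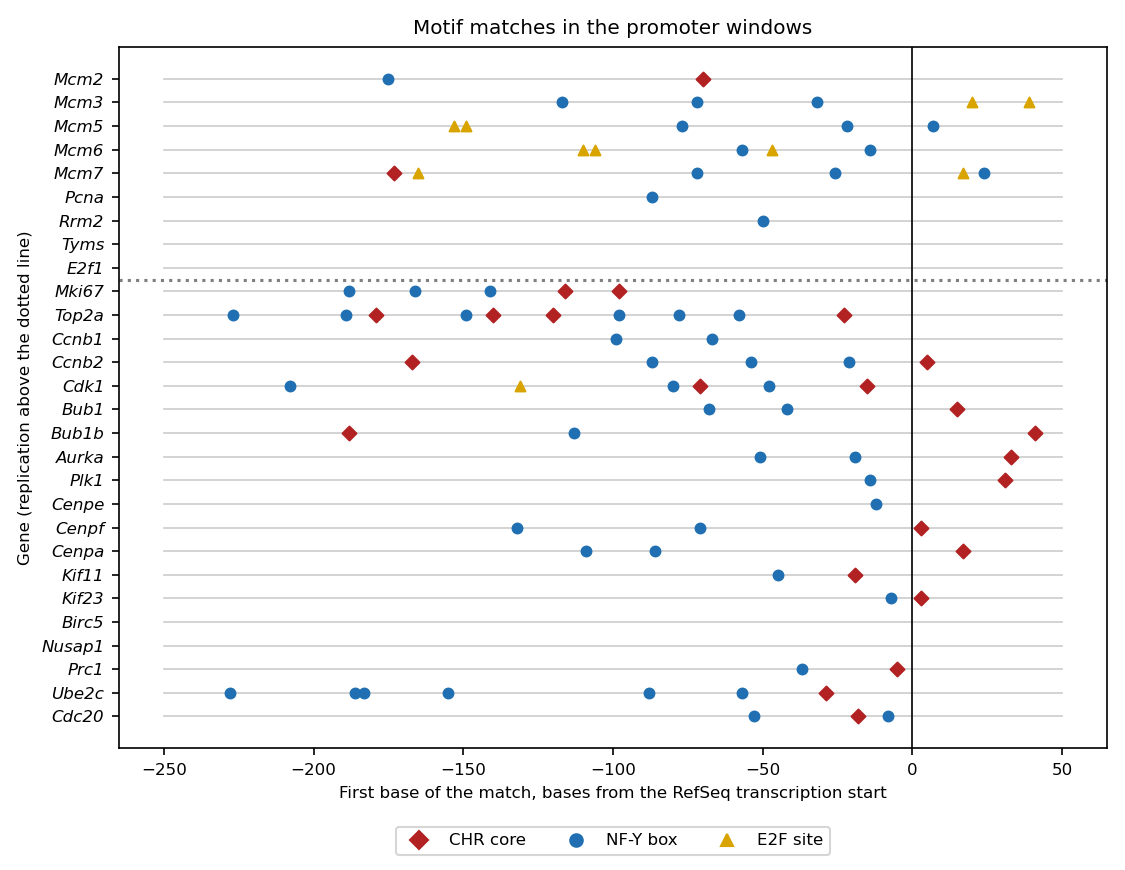
Position of each motif match in the promoter windows of the 28 matched members, in bases from the RefSeq transcription start (x axis), 1 row per gene, with replication genes above the dotted line. Diamonds mark the CHR core, circles the NF-Y box and triangles E2F sites; CHR cores lie in 15 of 19 mitosis rows and E2F sites in 4 of 9 replication rows.

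In FPKM, a level scaled for gene length and library depth, the most abundant member in wild-type brain was *Pcna*, the sliding clamp of the replication fork. It stood at 20.03 ± 1.37 FPKM (SD, n = 5) in the PWS-cr series and 15.4 ± 1.56 FPKM (SD, n = 5, as labelled) in the PWS-IC series. *Mcm7*, a subunit of the helicase, was the next, at 12 ± 1.35 and 12.4 ± 1.502 FPKM. The proliferation marker *Mki67* ranked seventh in both series, at 6.77 and 6.47 FPKM. *Tyms*, which makes thymidylate and has 6089 annotated exonic bases, was the lowest in both, at 1.42 and 1.503 FPKM. In CPM, which is not scaled for length, it was not the lowest. There it stood at 8.61 and 9.09 in wild-type pups, against 6.52 and 6.41 for *Aurka*.

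Genotype was compared first, asking whether pups of either model had another level of cell-cycle RNA than their littermates. None of the 34 genes passed edgeR's quasi-likelihood test for PWS-cr over wild-type after Benjamini-Hochberg adjustment over all genes tested (0 of 34; 0.0135% of all 22172 genes were called, 3 genes), and none had an unadjusted p under 0.05 (0 of 34, against 2.07% of all genes). Fitted values were mostly on one side, with 33 of 34 below 0, a median log2 fold change of -0.07 (0.00 over all genes) and a range from -0.20 for *Aurkb*, a kinase of chromosome alignment and cytokinesis, to 0.07 for *Ccne2*, the S-phase cyclin E2. All 23 mitosis genes were below 0 (median -0.09), as were 10 of 11 replication genes (median -0.05). The 95% confidence interval for *Aurkb* ran from -0.47 to 0.07 and that for *Mki67* (-0.14) from -0.34 to 0.05. The lowest unadjusted p was that of *Birc5* (survivin, a partner of *Aurkb*), at 0.0964 with a log2 fold change of -0.17.

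The values per pup, by litter, were as follows. *Mki67* had 48.1, 59.7 and 44.4 CPM in the PWS-cr pups of litter 1 and 60.7 in their wild-type littermate. In litter 3 it had 78.3 CPM in the PWS-cr pup and 79.8 and 88.3 in wild-type, and in litter 4 53.9 against 51.6 and 59.97. The PWS-cr pup of litter 2, which has no wild-type littermate with counts, stood at 79.9 CPM. The genotypes overlapped for every member: none of the 34 had all PWS-cr pups on one side of all wild-type pups, which 0.171% of all genes did. *Aurkb* had 5.53, 6.22 and 5.39 CPM in the PWS-cr pups of litter 1 against 8.30 in wild-type, 8.11 against 8.40 and 9.21 in litter 3, and 6.33 against 5.13 and 6.48 in litter 4. In litter 1 33 of 34 members were lower in PWS-cr pups by a median log2 difference of -0.28; in litter 3 16 of 34 were lower (median 0.02) and in litter 4 7 of 34 (median 0.05), and whether the litters differed in this was not tested. The lean rested on the single wild-type pup of litter 1, 1_3_Cr: without it 14 of 34 fitted values were below 0 and the median was 0.01. Only 3 members (8.82%) were lower in PWS-cr pups in all 3 litters that hold both genotypes, against 11.6% of all genes.

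**Figure D2:**
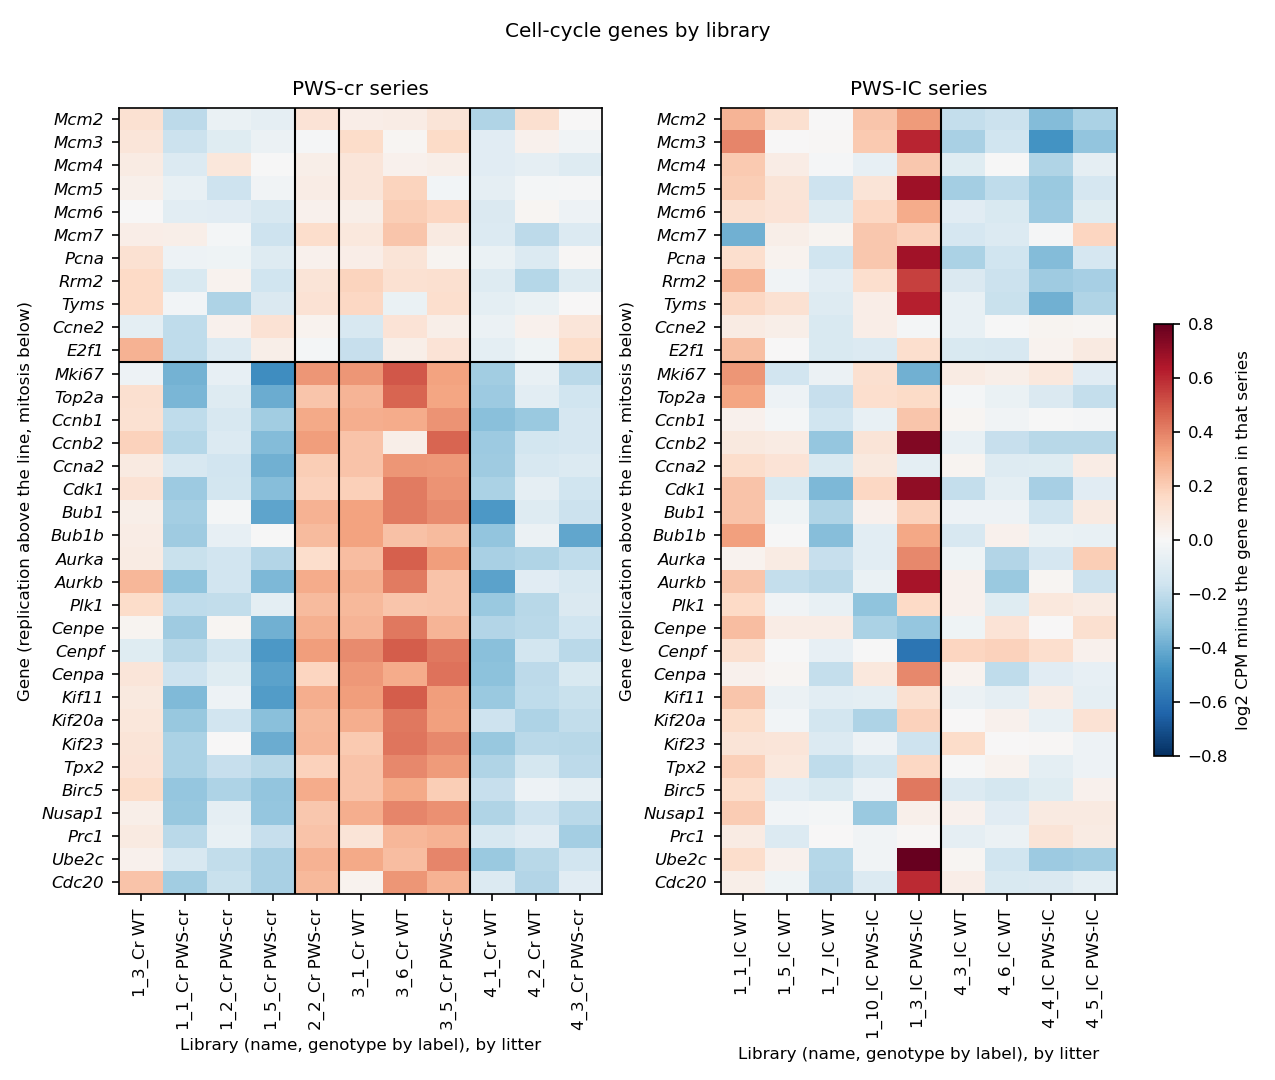
Level of each of the 34 genes (rows) in each library (columns, sorted by litter with black lines between litters), as log2 CPM minus the mean of the gene in that series, with red above and blue below the mean and colours ending at 0.8 either way. In the PWS-cr series litters 2 and 3 are red for the mitosis genes below the horizontal line in both genotypes, and in the PWS-IC series litter 4 is blue for most replication genes.

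In the PWS-IC series genotype values did not lean one way in both sets of libraries. On the 9 libraries as labelled 0 of 34 members passed edgeR's test (0% of 22367 genes were called), 24 values were above 0 and the median was 0.06. This fit did not call even *Snrpn*, whose counts went against the labels of 1_3_IC and 1_7_IC. Its lack of calls therefore cannot show that genotype left the members unchanged. On the 7 libraries, 0 of 34 passed (0.242% of 21913 genes were called, 53 genes), 11 values were above 0 and the median was -0.04. Unadjusted p was under 0.05 for 1 member, *Mcm7*, in each set, against 8.23% and 12.8% of all genes. No member separated the genotypes on 9 libraries (2.29% of all genes did); on 7 libraries *Tpx2*, a spindle assembly factor, was lower in all 3 PWS-IC pups than in all 4 wild-type pups (10.3% of all genes separated), at a log2 fold change of -0.15 and an unadjusted p of 0.0762 in edgeR.

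*Mcm7* had 67.8 CPM in 1_10_IC, 58.0 in 4_4_IC and 65.9 in 4_5_IC, the PWS-IC pups whose imprinted genes match their labels. Their wild-type littermates had 44.8 in 1_1_IC, 60.4 in 1_5_IC, 53.1 in 4_3_IC and 54.0 in 4_6_IC, and the libraries labelled 1_3_IC and 1_7_IC had 66.5 and 59.2. The groups overlapped, since 1_5_IC stood above 4_4_IC. In edgeR's fit the log2 fold change was 0.25 (95% confidence interval 0.04 to 0.47, adjusted p = 0.565) on 9 libraries and 0.28 (0.07 to 0.49, adjusted p = 0.302) on 7. Without 1_1_IC, the lowest library, the value on the other 8 libraries was 0.20 (adjusted p = 0.767). Exons of *Mcm7* overlap those of *Ap4m1* on the other strand over 7.25% of their length, and the libraries do not mark strand, so reads of the pair cannot be told apart there. No other helicase subunit followed it in the 7 libraries, where *Mcm2* to *Mcm6* had values from -0.13 to 0.00.

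Whether the 2 models differed from each other was tested in a fit over both series, as the PWS-IC effect minus the PWS-cr effect. None of the 34 genes passed (0 of 34; 0% of 23771 genes called on all libraries and 0.182% without 1_3_IC and 1_7_IC). Unadjusted p was under 0.05 for *Mcm7* (difference 0.31 on the log2 scale) and for *Birc5* (0.35), both at adjusted p = 0.836 in edgeR's quasi-likelihood test, against 4.72% of all genes. On all libraries 30 of 34 differences were above 0 with a median of 0.15, and without the 2 libraries 21 of 34 with a median of 0.03. The fit on all libraries called no gene, *Snrpn* included, so its lack of calls cannot show equal effects.

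**Figure D3:**
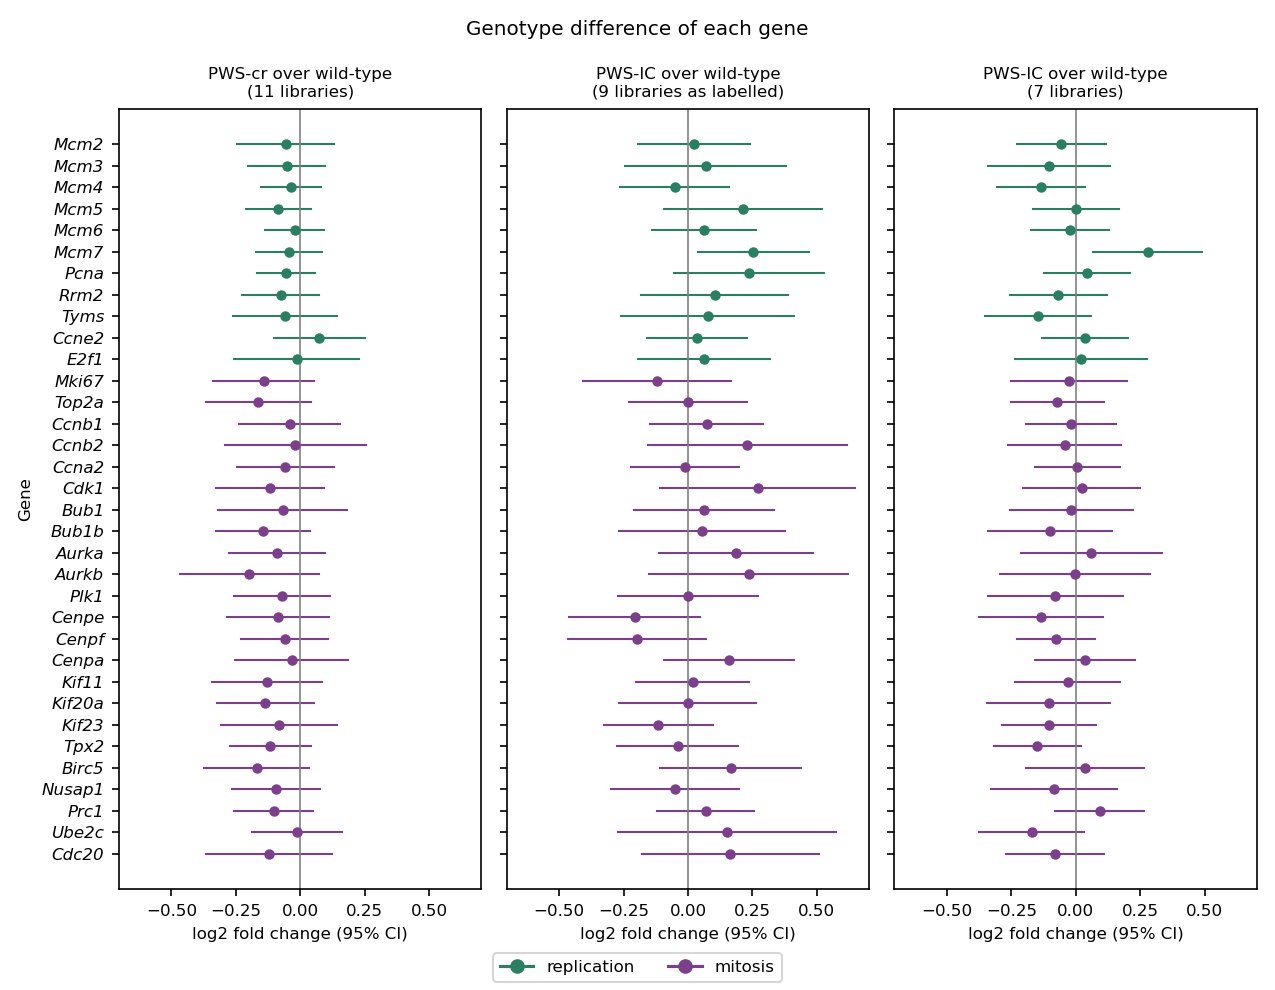
Log2 fold change of each member (points) with its 95% confidence interval (lines) from edgeR for PWS-cr over wild-type on 11 libraries (left), PWS-IC over wild-type on 9 libraries as labelled (middle) and on 7 libraries (right), replication genes in green and mitosis genes in purple. Nearly all intervals cross 0; the exception is *Mcm7* in both PWS-IC panels.

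Litter was compared next, since pups of one litter share their dam, their birth and their collection. In the PWS-cr series the 23 mitosis genes together had 354.9 ± 47.0 CPM in litter 1 (SD, n = 4), 475 CPM in the single pup of litter 2, 499.8 ± 21.9 CPM in litter 3 (SD, n = 3) and 345.5 ± 16.8 CPM in litter 4 (SD, n = 3). All 4 libraries of litters 2 and 3, of both genotypes, lay above all 7 libraries of litters 1 and 4. The 11 replication genes together ranged from 263.3 ± 5.7 CPM in litter 4 to 294.7 ± 6.2 CPM in litter 3.

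*Cenpf* had 27.7 CPM in litter 2 and 28.6, 29.4 and 30.8 CPM in litter 3, against 15.98 to 20.5 CPM in litter 1 and 17.5 to 19.8 CPM in litter 4. *Top2a*, the topoisomerase that untangles sister chromosomes, had 69.3 CPM in litter 2 and 71.8 to 82.1 CPM in litter 3, against 45.2 to 65.0 CPM in litter 1 and 48.6 to 56.2 CPM in litter 4. *Ccnb1*, the cyclin that drives entry into mitosis, had 13.6 to 14.2 CPM in litters 2 and 3 and 8.82 to 12.1 CPM in litters 1 and 4. For all 3 genes every library of litters 2 and 3 lay above every library of litters 1 and 4. The same held for 20 of the 23 mitosis genes, the exceptions being *Ccnb2*, *Aurkb* and *Cdc20*, and for 2 of the 11 replication genes, *Mcm6* and *Mcm7*, against 1.3% of all genes; this grouping of litters was chosen after the values were seen and is a description. *Mcm2* did not separate, at 20.01 CPM in litter 2 and 19.2 to 19.9 in litter 3 against 15.7 to 20.3 in the other litters. The library 3_6_Cr was the highest in 19 of 34 members and 1_5_Cr the lowest in 14.

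The test of all litter terms together gave different calls in different tools. In edgeR's quasi-likelihood test no member passed after adjustment (0 of 34; 0.0226% of all genes called, 5 genes), the nearest being *Cenpf* at adjusted p = 0.0806, sixth of 22172 genes by p. Unadjusted p was under 0.05 for 26 of 34 members, all 23 mitosis genes and *Mcm6*, *Mcm7* and *Rrm2*, against 6.45% of all genes. DESeq2's likelihood ratio test on the same genes called 18 members, all mitosis genes, among 79 genes (0.356% of all genes), with *Cenpf* at adjusted p = 3.57e-11. In edgeR without the filter on low counts, 16 members were called among 102 genes (0.224%), again all mitosis genes. The call in edgeR also turned on 1 library: without 1_5_Cr, *Cenpf* passed at adjusted p = 0.0187. Leaving out any library in turn left 23 to 26 members with an unadjusted p under 0.05.

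Fitted values of litter 3 over litter 4 are given as a description, since this pair was picked for lying farthest apart. No member passed edgeR's test for the pair after adjustment, the lowest adjusted p being 0.0927 for *Cenpf*. Values were above 0 for 23 of 23 mitosis genes, by a median log2 fold change of 0.53, from 0.34 for *Birc5* to 0.66 ± 0.09 (SE) for *Cenpf*, a ratio of 1.58; the median of all genes was 0.00. Among genes of the chromosomes in division, *Mki67* stood at 0.57 ± 0.10 and *Top2a* at 0.53 ± 0.11. The cyclins and their kinase, which trigger mitosis, ran from 0.45 for *Ccnb2* over 0.48 for *Ccna2* and 0.49 for *Cdk1* to 0.57 for *Ccnb1*. Kinetochore and checkpoint genes, which tie chromosomes to the spindle and hold anaphase until all are attached, were at 0.52 for *Bub1b*, 0.53 for *Cenpe*, 0.58 for the centromeric histone *Cenpa* and 0.61 for *Bub1*. The mitotic kinases were at 0.44 for *Plk1*, 0.51 for *Aurkb* and 0.59 for *Aurka*. Genes of the spindle and its midzone ran from 0.38 for *Prc1* over 0.52 for *Tpx2*, 0.55 for *Kif20a*, 0.56 for *Nusap1* and 0.59 for *Kif23* to 0.61 for the motor *Kif11*. *Ube2c* and *Cdc20*, partners of the anaphase-promoting complex that ends mitosis, were at 0.54 ± 0.09 and 0.37 ± 0.13. The 3 lowest values were those of *Birc5*, *Cdc20* and *Prc1*. Replication genes were above 0 in 9 of 11, by a median of 0.13: *Rrm2*, a subunit of ribonucleotide reductase, stood at 0.28 ± 0.08, *Mcm7* at 0.27 ± 0.07 and *Mcm2* at 0.10 ± 0.10. *Ccne2* and *E2f1*, which act at entry into S phase, stood at -0.02 each. Litter 3 over litter 1 had a median of 0.44 for mitosis and 0.10 for replication genes, litter 4 over litter 1 had -0.09 and -0.02, and litter 3 over litter 2 had 0.01 over the mitosis genes.

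**Figure D4:**
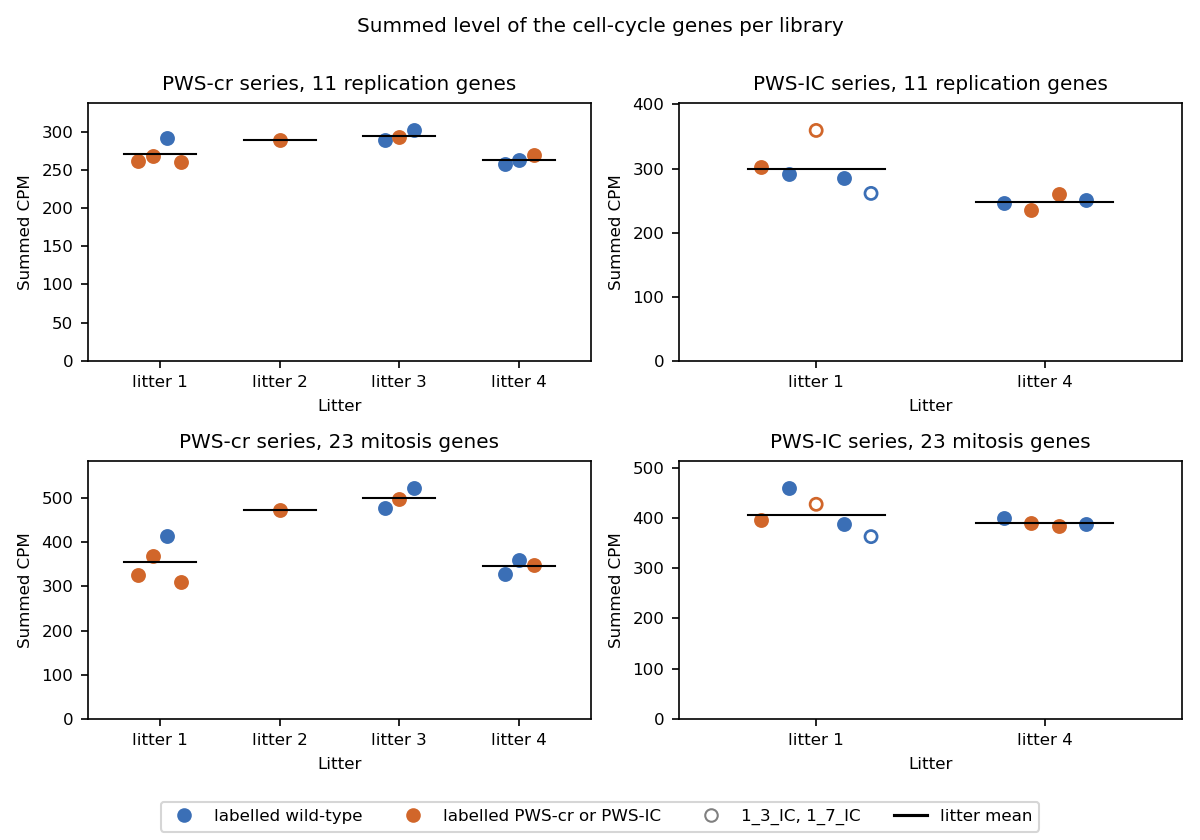
Summed CPM of the 11 replication genes (top) and 23 mitosis genes (bottom) per library (points) by litter, PWS-cr series left and PWS-IC series right, with wild-type in blue, PWS-cr or PWS-IC in orange, the libraries labelled 1_3_IC and 1_7_IC as open points and litter means as lines. In the PWS-cr series litters 2 and 3 lie above litters 1 and 4 for mitosis genes, at 475 to 523 against 311 to 415 CPM.

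Genes of the same processes outside the 34 were read from lists of their own. Like the members, these lists were chosen with earlier results of these data known. They were read in the same pups, so they are no independent check. Of 48 further mitosis genes 39 had an unadjusted p under 0.05 for litter in the PWS-cr series, against 6.45% of all genes, and 46 had a higher fitted level in litter 3 than in litter 4 (median 0.39), with the lowest p in *Arhgap11a*, *Aspm* (a spindle pole protein of neural progenitors) and *Cdca2*. Of 35 further replication genes 3 were under 0.05 (*Pole*, *Rrm1* and *Tk1*), a share near that of all genes, and the median difference was 0.12. None of these 83 genes passed after adjustment in edgeR. Under 0.05 were also 1 of 13 radial glia markers (median difference -0.06), 0 of 8 of intermediate progenitors (0.07), 0 of 8 of interneuron precursors (0.12), 0 of 12 of postmitotic neurons (-0.07) and 2 of 8 of cerebellar granule precursors (0.08). These lists are too short to read a share near the background from.

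Genes of other tissues also had fitted differences between litters 3 and 4, and none of them passed the litter test in edgeR after adjustment. Red cell genes were on the side of litter 3 for 9 of 9 tested (median 0.37; unadjusted p for litter under 0.05 for *Hbb-bs* and *Hbb-bt*), and summed to 113 to 144 CPM in litters 2 and 3 against 91.5 to 118 CPM in the other litters, so the ranges overlapped. Endothelial genes (7 of 7, median 0.29, 1 with an unadjusted p under 0.05) and genes of the meninges (8 of 8, 0.25, 0 under 0.05) lay on the same side, and choroid plexus genes (7 of 7, -0.29, 2 under 0.05) on the other. Caudal Hox genes differed between pups of one litter, with sums of 0.671, 37.8 and 11 CPM in litter 3 and of 13.1, 10.7 and 28.8 CPM in litter 4, so no litter difference can be read from their median of -0.90 (5 of 8 under 0.05). Their part in the difference of the mitosis genes was not tested.

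In the PWS-IC series the fitted values of all 11 replication genes were below 0 for litter 4 over litter 1, with a median log2 fold change of -0.39 on 9 libraries and -0.30 on 7, against 0.01 over all genes in both sets; how many passed the test is given below for each set. Mitosis genes had medians of -0.07 and -0.06, with 15 and 16 of 23 below 0. Summed replication CPM was 299.7 ± 36.6 in litter 1 (SD, n = 5) and 248.1 ± 10.8 in litter 4 (SD, n = 4), and summed mitosis CPM was 407.0 ± 37.2 and 391.0 ± 6.26.

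*Mcm3* had 20.1, 17.7 and 15.3 CPM in 1_1_IC, 1_10_IC and 1_5_IC of litter 1, with 23.4 and 15.4 in the libraries labelled 1_3_IC and 1_7_IC. In litter 4 it had 12.8, 11, 12.3 and 13.7 CPM, so the litters did not overlap. *Mcm2* separated in the same way, at 18.3 to 23.1 CPM in litter 1 and 14.3 to 16.2 in litter 4. *Mcm5* had 22.6 to 24.1 CPM in the 3 litter 1 libraries that match their labels and 17.1 to 19.1 in litter 4, and the library labelled 1_7_IC fell inside the range of litter 4 at 18.8. *Pcna* likewise had 39.3 to 44.8 CPM against 30.3 to 35.2, with the library labelled 1_7_IC at 34.6. On 9 libraries 3 replication genes (*Mcm2*, *Mcm3* and *Rrm2*) and 0 mitosis genes had every litter 1 library above every litter 4 library (4.09% of all genes), and on 7 libraries 8 replication and 2 mitosis genes (*Ccnb2* and *Ccna2*) did (11.8% of all genes).

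On 9 libraries no member passed edgeR's test for litter (0 of 34; 0.0402% of all genes called), and 7 members, all replication genes, had an unadjusted p under 0.05, a share of members close to the 18.6% of all genes. On 7 libraries 4 members fell in litter 4 (4 of 34; 2.56% of all genes called, 561 genes). They were *Mcm2* (-0.44 ± 0.08 SE, adjusted p = 0.0389 by edgeR's quasi-likelihood test), *Mcm3* (-0.49 ± 0.11, adjusted p = 0.0487), *Mcm5* (-0.36 ± 0.08, adjusted p = 0.0484) and *Pcna* (-0.35 ± 0.08, adjusted p = 0.0487). Unadjusted p was under 0.05 for 10 members (26.2% of all genes), which add *Mcm6*, *Rrm2* and *Tyms* among the replication genes and *Top2a*, *Ccnb2* and *Cdk1* among the mitosis genes. *Mcm7* stood apart from the other helicase subunits at -0.03 ± 0.10, and *Ccne2* and *E2f1* at -0.06 and -0.09. The libraries labelled 1_3_IC and 1_7_IC are both of litter 1 by name, and their labels conflict in genotype and sex, not in litter. Leaving out 1_7_IC removed a litter 1 library within the range of litter 4 for *Mcm5* and *Pcna*. Leaving out 1_3_IC removed the highest litter 1 library for both genes. The calls on 7 libraries turned on single libraries, with 0 to 8 members called. Without 1_5_IC 8 members (23.5%) were called, in a fit that called 3150 of 21660 genes. Without any one of the other 6 libraries 0 members were called. DESeq2 called 2 members (*Mcm2* and *Mcm3*) on 9 libraries, among 165 genes (0.738%).

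**Figure D5:**
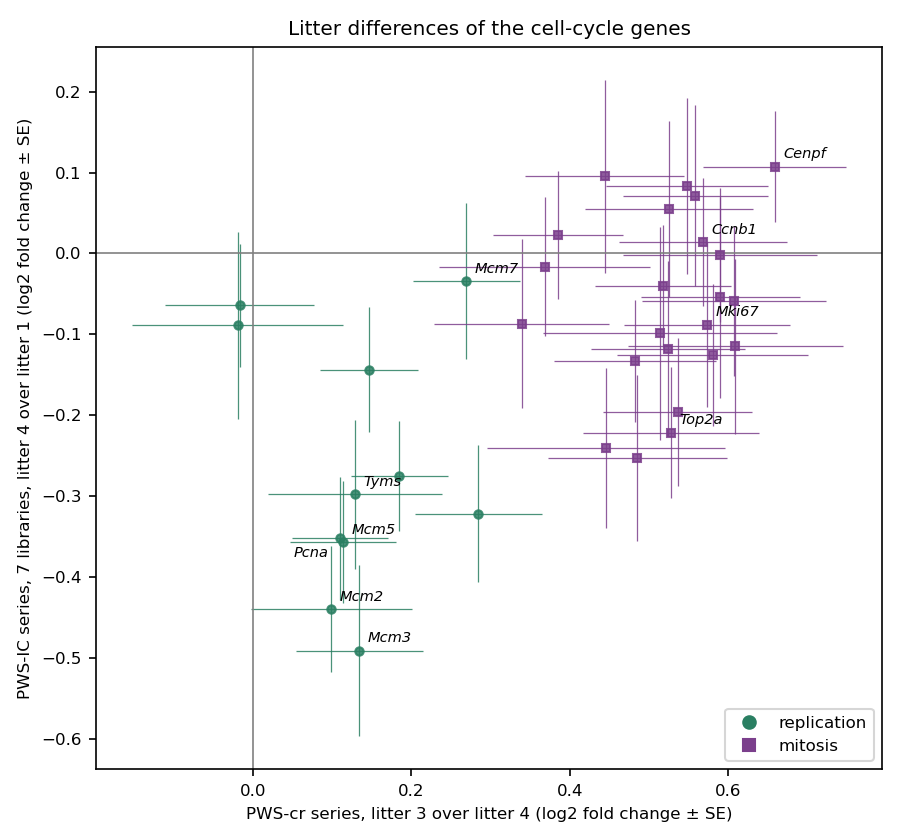
Litter difference of each member as log2 fold change with its SE, litter 3 over litter 4 in the PWS-cr series (x axis) against litter 4 over litter 1 on 7 libraries in the PWS-IC series (y axis), replication genes as green circles and mitosis genes as purple squares. Mitosis genes lie to the right, at 0.34 to 0.66 on the x axis, and most replication genes low, down to -0.49 on the y axis.

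Of 35 further replication genes 28 had values below 0 between the PWS-IC litters on 7 libraries (median -0.10), and 1 was called, *Uhrf1* (-0.36), which recruits the maintenance DNA methyltransferase to copied DNA; that share is near the 2.56% of all genes. Of the 48 further mitosis genes 27 were below 0 (median -0.01) and none was called in edgeR, with 2 at an unadjusted p under 0.05 against 26.2% of all genes. The other lists had 1 call each at most on these libraries: 1 of 11 G1 cyclins and growth drivers (*Ccnd1*, cyclin D1, -0.38), 1 of 17 genes of cell-cycle exit (*Cdkn1a*, the inhibitor p21, -0.43), 1 of 7 tested of intermediate progenitors (*Eomes*, 0.48, with 4 of the 7 above 0), 1 of 6 of oligodendrocyte precursors (*Olig1*, -0.42), 1 of 7 of endothelium (*Kdr*, -0.36) and 1 of 9 tested red cell genes (*Hba-a2*, 5.45). Each of these calls is of 1 gene and is not read as a difference of its list or cell type. Of these 7 called genes, *Uhrf1* included, 6 were called in 1 of the 7 fits that leave out a library, the one without 1_5_IC, and *Hba-a2* in 2. Values below 0 were also those of 7 of 8 genes of microglia (median -0.21), 6 of 7 of endothelium (-0.21), 8 of 8 of meninges (-0.26) and 7 of 7 of choroid plexus (-0.17). The caudal Hox gene *Hoxb8* differed between pups of one litter. In litter 1 it had 745 counts in 1_1_IC, 674 in 1_10_IC and 1 in 1_5_IC. The libraries labelled 1_3_IC and 1_7_IC had 960 and 14. In litter 4 it had 12 to 515 counts. The part of all these genes in the replication difference was not tested.

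Some members share exonic bases with a neighbour on the other strand, and strand was not kept: *Kif20a* with *Cdc23* over 29.3% of its exonic length, *Ube2c* with *Tnnc2* over 22.8%, *Ccne2* with *Ints8* over 17.4%, *Ccna2* with *Exosc9* over 12.5% and *Prc1* with *Rccd1* over 11.1%. *Tnnc2*, a muscle troponin, had 0 to 4 counts in every library. Reads in the shared bases cannot be assigned to one gene of the pair, and how the counting treated them is not given. The values of all these members, *Ube2c* included, carry that uncertainty.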

How the data were processed

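RNA sequencing measured polyadenylated RNA of whole P0 brain. Per the study's methods, KAPA mRNA HyperPrep libraries were sequenced in pairs without strand; the authors mapped reads to mm10 with STAR, counted with featureCounts, tested genotype and litter with DESeq2 and removed 1 outlying library per series. Versions of STAR, featureCounts and DESeq2 are not given in the sources used here. Of 22 labelled libraries 20 have a column; the other 2 were not analysed here. The deposited counts are raw fragment counts per gene, and the deposited FPKM values were scaled by the authors for depth and gene length. The authors' own fold changes, test statistics and p-values, and 40 columns of size-factor scaled counts and TPM, were not used.

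EdgeR 4.0.16 in R 4.3.3 gave the tests here: TMM scaling and the quasi-likelihood fit of each series by itself on genotype plus litter. A gene entered with 10 counts or more in 4 or more libraries. P-values were adjusted by Benjamini-Hochberg over all genes tested, with calls under 0.05. Litter was tested with all its terms at once, and a joint model of both series tested the difference between the models. CPM uses TMM library sizes, and log2 CPM a prior count of 2. Scripts were tested on simulated data. Alternatives were DESeq2 1.42.0, RLE scaling, other filters, sex as a term, no litter term and leaving out each library; DESeq2 and leave-one-out on the 7 PWS-IC libraries, list genes included, were added after seeing the data. All 34 members are reported, and of each further list the called genes or up to 3 with the lowest p. The members and lists were chosen with earlier results of these data known. Pups are separate animals, so p-values measure the spread between pups. In the litter tests this is the spread between pups within the litters sampled. Those p-values do not measure the spread between litters in general.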

Additional observations from a re-analysis of the deposited data

Results flagged for a closer look

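Dixon's test of the highest and lowest library was run on the CPM of each member within each of 4 genotype groups, 136 groups in all, and it marked 7; chance marks about 1 group in 20. In the PWS-cr series *Ccne2* was low in the PWS-cr pup 1_1_Cr, at 11.3 CPM with the next pup at 13.2, and *Mcm2* was low in the wild-type pup 4_1_Cr, at 15.7 CPM with the next at 19.2. In the PWS-IC group the library labelled 1_3_IC was high for *Bub1b*, a checkpoint kinase, at 13.6 CPM with the next at 10.6, and for *Cdc20*, the activator of the anaphase-promoting complex, at 17.8 CPM with the next at 11.2. That library goes against its label and reads short transcripts high, as given above. *Cdc20* has 1868 exonic bases, whereas *Bub1b* has 4275. Genes of 4000 to 8000 bases had a median log2 deviation of 0 in that library, and those of 2000 to 4000 bases 0.31. *Bub1b* lies near the lower edge of its class. The part of length in these values was not tested. Also in the PWS-IC group, *Nusap1* was low in 1_10_IC, at 14.3 CPM with the next at 18.1. In the wild-type pups of the PWS-IC series 1_1_IC was high for *Kif11*, at 20.8 CPM with the next at 17.3, and for *Birc5*, at 8.18 CPM with the next at 7.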

How the results depend on the processing

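No paired analysis was possible because the replicate numbers only name pups, and litter, the one tie between them, is a term of the model. With edgeR or DESeq2, 0 members were called for genotype or for the difference between models in any alternative. Counts of genes called moved more. For PWS-cr genotype DESeq2 called 7 genes and edgeR without a filter 10; for PWS-IC genotype DESeq2 called 1, no filter 471, the 7 libraries 53 and DESeq2 on them 227, and for the difference between models 3, 87, 43 and 61. For litter in the PWS-cr series DESeq2 called 79 genes with 18 members and no filter 102 with 16. For litter in the PWS-IC series DESeq2 called 165 genes with 2 members, no filter 2334 with 5, a filter in every library 3 genes, the 7 libraries 561 with 4, and DESeq2 on them 1984 with 6. Leaving out single libraries gave 0 to 1 genes for PWS-IC genotype, 0 to 2 for the difference, 1 to 7 with 0 to 1 members for PWS-cr litter, 1 to 13 for PWS-IC litter on 9 libraries, and 2 to 3150 with 0 to 8 members on 7. The members' median genotype value ran from -0.14 to 0.01 in PWS-cr, -0.01 to 0.13 in PWS-IC and 0.03 to 0.21 for the difference when single libraries were left out. It changed sign without 1_3_Cr in PWS-cr (0.01) and without the library labelled 1_3_IC in PWS-IC (-0.01). In PWS-IC it was -0.04 on the 7 libraries and -0.059 with sex in the model. That sex term used the labelled sex, which *Xist* and *Eif2s3y* go against in the libraries labelled 1_3_IC and 1_7_IC. Without 1_3_Cr the median difference between the models was the lowest of its range. The causes of these shifts were not tested.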
